A study of Homo sapiens with 12 samples.

Results

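The genes described here encode developmental transcription factors of the GATA, TBX, FOX, SOX and TFAP2 families. They were taken by symbol from a list of 51 names, all of which stand in the authors' normalized gene table of 28813 genes: 6 GATA, 9 TBX, 17 FOX, 16 SOX and 3 TFAP2 genes. Messenger RNA was sequenced from MKL-1, an established human Merkel cell carcinoma line, as 12 libraries in 4 groups of 3. The groups were 3 µM EPZ011989 in 1% ethanol for 6 days, 1% ethanol (vehicle) for 6 days, and the same pair at 12 days, with medium refreshed every 3 days in each group. EPZ011989 is a small molecule that blocks EZH2, the histone methyltransferase of Polycomb repressive complex 2. All groups were 1 cell line in culture. Nothing in the labels tells if the 3 libraries of a group came from separate cultures, and the spread behind the p-values may therefore be technical.

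GATA factors are zinc finger proteins, TBX factors carry the T-box, FOX factors the forkhead domain and SOX factors an HMG box, while TFAP2 factors (AP-2) share a basic helix-span-helix domain. In the embryo these families set cell identity in a tissue-specific way, and many of their genes lie in CpG-rich chromatin that Polycomb marks in cells where they are silent. Merkel cells, the mechanosensory cells of the epidermis, depend on SOX2, a gene of the SOX family outside the list of 51, and AP-2 factors are regulators of the epidermis and the neural crest.

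The sequences below show how the DNA just before the start of these genes differs in CpG content, the base pair step that is dense in CpG islands. FOXQ1, FOXF2 and FOXC1 neighbour each other on chromosome 6 and followed different courses; FOXD3 rose at both days and TFAP2A fell at both days. Each is the 250 bases before the RefSeq start (GRCh38.p14), 5′ to 3′, with each CG in capitals. They lie at chr6:1311848-1312097 (plus strand) for FOXQ1, chr6:1389326-1389575 (plus) for FOXF2, chr6:1609665-1609914 (plus) for FOXC1, chr1:63322317-63322566 (plus) for FOXD3 and chr6:10419660-10419909 (minus) for TFAP2A.
FOXQ1: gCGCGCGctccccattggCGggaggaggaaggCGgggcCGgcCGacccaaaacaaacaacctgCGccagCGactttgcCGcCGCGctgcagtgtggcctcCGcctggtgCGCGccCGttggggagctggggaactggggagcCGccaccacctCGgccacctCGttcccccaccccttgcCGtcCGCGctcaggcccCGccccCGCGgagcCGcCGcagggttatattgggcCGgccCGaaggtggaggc
FOXF2: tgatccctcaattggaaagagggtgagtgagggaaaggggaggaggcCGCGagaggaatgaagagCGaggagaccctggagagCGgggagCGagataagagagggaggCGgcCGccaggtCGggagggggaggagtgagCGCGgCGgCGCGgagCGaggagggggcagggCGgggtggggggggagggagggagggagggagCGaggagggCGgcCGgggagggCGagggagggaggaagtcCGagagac
FOXC1: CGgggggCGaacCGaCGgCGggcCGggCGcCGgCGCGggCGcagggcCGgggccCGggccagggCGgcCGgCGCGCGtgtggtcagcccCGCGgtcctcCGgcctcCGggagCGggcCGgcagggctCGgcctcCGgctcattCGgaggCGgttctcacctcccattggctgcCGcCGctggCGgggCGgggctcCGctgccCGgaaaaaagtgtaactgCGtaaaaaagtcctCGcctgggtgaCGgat
FOXD3: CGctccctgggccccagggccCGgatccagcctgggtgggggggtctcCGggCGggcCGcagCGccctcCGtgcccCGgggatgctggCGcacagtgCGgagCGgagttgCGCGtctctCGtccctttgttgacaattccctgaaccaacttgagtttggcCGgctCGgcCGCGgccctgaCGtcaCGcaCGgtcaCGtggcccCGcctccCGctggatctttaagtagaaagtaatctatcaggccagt
TFAP2A: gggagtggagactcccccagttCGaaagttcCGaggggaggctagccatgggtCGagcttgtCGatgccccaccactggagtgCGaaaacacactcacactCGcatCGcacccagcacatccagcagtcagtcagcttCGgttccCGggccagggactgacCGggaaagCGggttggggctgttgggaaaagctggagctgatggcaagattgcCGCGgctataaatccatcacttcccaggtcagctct
They hold 29, 20, 37, 24 and 13 CG steps in that order. In the full window of 250 bases before to 50 after the start, RefSeq promoters were matched for 34 of the 51 genes. Their median was 24 CG steps, against 14 over 27305 promoters. The 5 genes that fell at both days all had a promoter entry, with a median of 16 and a range of 5 (TFAP2B) to 21 (TBX18). Of the 8 genes that rose at both days 5 were matched, while TBX2, FOXA2 and SOX11 had no promoter entry. The 5 matched genes had a median of 29, from 15 (SOX13) to 39 (FOXI3), so the 2 ranges overlapped. Letters were also searched on both strands for 5 motifs, none of which contains another: GATAAG was in 3 of the 34 and 6.36% of all promoters, TGTTTAC in 1 and 3.41%, AACAAT in 3 and 10.3%, GCCNNNGGC in 12 and 23.0%, and TATAAA in 4 and 12.0%. TATAAA was held by 2 of the 5 genes that fell at both days, TFAP2A and TFAP2B.

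Libraries held 15994997 to 20866370 estimated reads, and 15016 genes passed the filter on low counts. A floor of 3 reads in a library came to 0.147 to 0.193 CPM, the counts scaled to library size that are used below to compare libraries within a gene. All 12 markers of Merkel and neuroendocrine cells were at 1 CPM or more in every group, as the label of a Merkel cell carcinoma line has it. Among vehicle libraries of day 12, replicate 1 lay away from its group on the third principal component, at -51.4 against -14.0 and 6.90 for the other two. EZH2 mRNA was 137, 138 and 142 CPM in EPZ011989 cells at day 6, against 156, 160 and 156 CPM in vehicle, and 60.7, 61.8 and 57.2 CPM in EPZ011989 cells at day 12, against 182, 178 and 164 CPM in vehicle. The drug acts on the enzyme, so these mRNA levels do not check the labels. Log2 fold changes of EZH2 were -0.18 ± 0.05 at day 6 and -1.54 ± 0.05 at day 12 (standard error; edgeR quasi-likelihood test, adjusted p = 0.011 and 2.45e-12), those of SUZ12 -0.12 and -0.80, of EED -0.25 and -0.43, and of EZH1 0.09 and 0.36. EED reads summed to 0.577 times the authors' level, and in the authors' deposited table its values were -0.05 and -0.23. The day 6 call of EZH2 was lost without replicate 2 of the day 6 vehicle group (edgeR adjusted p = 0.0827) and with transcript lengths as an offset (0.0711). It was also lost in limma on the authors' deposited table with pseudocounts of 1 and 5 (adjusted p = 0.0515 and 0.0506).

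In vehicle cells the families stood at very different levels. The TFAP2 genes were the highest as a family: all 3 were at 1 TPM or more (a level that divides reads by transcript length), and their median over the 6 vehicle libraries was 91.9 TPM. The FOX genes followed, with 10 of 17 at 1 TPM or more and a median of 2.38 TPM. Only 6 of 16 SOX genes (median 0.141 TPM) and 2 of 9 TBX genes (0.0895 TPM) reached 1 TPM, and no GATA gene of 6 did (0.0323 TPM). By summed level the order of FOX and SOX turns round: in vehicle at day 6 the SOX genes summed to 147 TPM and the FOX genes to 118 TPM, and at day 12 to 138 and 110 TPM, most of the SOX sum being SOX4. In all 21 of the 51 genes reached 1 TPM and 9 reached 10 TPM. Over 28358 genes 45.1% reached 1 TPM and the median was 0.384 TPM. The same number, 21, reached 1 TPM in the day 6 and in the day 12 vehicle libraries alone.

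**Figure D1:**
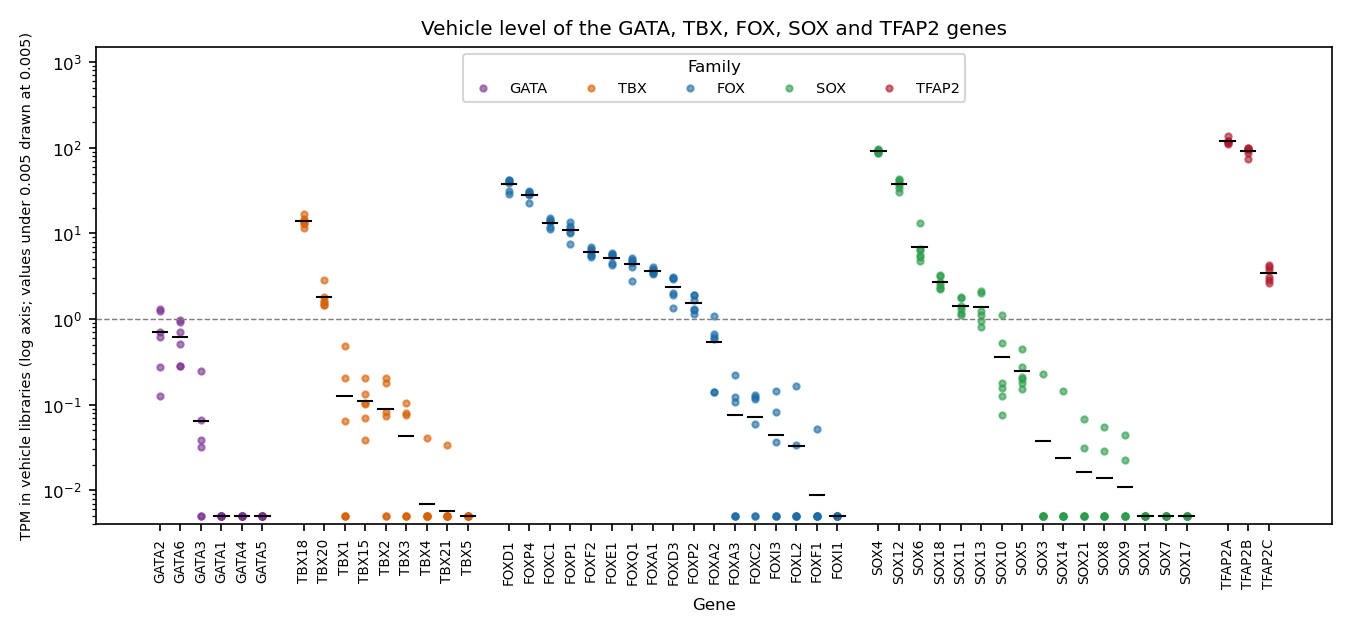
Level in the 6 vehicle libraries, in TPM on a log axis, of the 51 genes ordered by mean within each family; points are libraries, bars are means, the dashed line is 1 TPM, and values under 0.005 TPM are drawn at 0.005. TFAP2A, TFAP2B and SOX4 sit near 100 TPM, and no GATA gene has a mean of 1 TPM.

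TFAP2A, an epidermal and neural crest regulator, was the highest member in vehicle, at a lowest value of 110, a median of 118 and a highest value of 138 TPM. Its paralogue TFAP2B had 74.6, 96.3 and 99.9 TPM by the same measures, and SOX4, a SOXC factor of progenitor cells, 85.8, 91.4 and 97.5 TPM. All 6 libraries had more TFAP2A than TFAP2B, while TFAP2B and SOX4 overlapped. SOX12, also of the SOXC group, (mean 37.9 ± 5.00 TPM, SD, n = 6), FOXD1, a factor of kidney stroma, (37.4 ± 5.71 TPM) and FOXP4 (28.4 ± 3.06 TPM) came next and overlapped neighbour by neighbour. TBX18, a factor of the epicardium and urinary tract, (13.8 ± 1.75 TPM), FOXC1, of eye and mesoderm development, (13.3 ± 1.44 TPM) and FOXP1 (10.9 ± 2.07 TPM) completed the 9 genes at 10 TPM. Each of the 12 genes between 1 and 10 TPM overlapped its neighbour, from SOX6 (6.96 ± 3.14 TPM, with a single library at 13.2 TPM) to SOX13 (1.37 ± 0.560 TPM).

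The low-count filter let 28 of the 51 genes be tested: 2 GATA, 3 TBX, 12 FOX, 8 SOX and 3 TFAP2 genes. TBX2, FOXI3 and SOX10 passed it only with treated libraries (the limit was 0.545 CPM), so a difference in them was partly required by the filter. At day 6, 18 of the 28 were called, 13 higher and 5 lower with EPZ011989, where 34.3% of all tested genes were called (17.1% higher and 17.1% lower). At day 12, 23 were called, 11 higher and 12 lower, where 66.9% of all tested genes were called (33.7% higher and 33.3% lower). Leaving out TBX2, FOXI3 and SOX10, 11 of 25 were higher and 5 lower at day 6, and 8 were higher and 12 lower at day 12. The effect itself differed between the days in 14 of the 28, with 4 differences above 0 and 10 below, where 47.7% of all tested genes were called (22.6% above and 25.1% below). The median log2 fold change of the 28 was 0.31 at day 6 and -0.25 at day 12, against -0.02 and 0.02 over all tested genes. These medians include TBX2, FOXI3 and SOX10 and were not taken without them. With replicate 1 of the day 12 vehicle libraries left out, 21, 20 and 13 of the list were called in these 3 contrasts. With transcript lengths as an offset the calls of FOXP1, FOXP2, SOX5 and SOX13 at day 6, of FOXC1, FOXP1, FOXP4 and SOX13 at day 12, and of FOXA2, FOXD3, FOXP1, FOXP2 and TFAP2C for the difference were lost (adjusted p = 0.0503 to 0.61).

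By family, 2 of 2 tested GATA genes rose at day 6 and 1 at day 12. Of 3 tested TBX genes 1 rose and 1 fell at each day. Among 12 tested FOX genes 7 rose and 1 fell at day 6, and 5 rose and 5 fell at day 12. The 8 tested SOX genes had 3 that rose and 1 that fell at day 6, and 4 that rose and 3 that fell at day 12. Of 3 tested TFAP2 genes none rose, 2 fell at day 6 and 3 at day 12. Over all tested genes 17.1% rose and 17.1% fell at day 6, and 33.7% rose and 33.3% fell at day 12. TBX2, FOXI3 and SOX10, which passed the filter only with treated libraries, are among these rises. Summed over its 6 genes the GATA family had 6.76 ± 0.802 TPM in EPZ011989 cells at day 6, against 1.18 ± 0.383 TPM in vehicle (SD, n = 3 each). Most of that treated sum was GATA2, at 5.3 TPM. At day 12 the GATA sum was 4.01 ± 0.762 TPM in EPZ011989 cells, against 1.6 ± 0.623 TPM in vehicle. The TFAP2 sum was 168 ± 7.82 TPM in EPZ011989 cells at day 6, against 217 ± 3.72 TPM in vehicle. At day 12 it was 145 ± 4.11 TPM in EPZ011989 cells, against 213 ± 6.86 TPM in vehicle. The FOX sum, in which rises and falls offset, was 109 ± 6.02 TPM in EPZ011989 cells at day 12, against 110 ± 8.38 TPM in vehicle. At day 6 it was 127 ± 5.54 TPM in EPZ011989 cells, against 118 ± 1.72 TPM in vehicle. Treated TBX sums were 12.0 TPM at day 6 and 9.78 TPM at day 12, against 14.9 and 17.1 TPM in vehicle. Treated SOX sums were 126 and 132 TPM, against 147 and 138 TPM in vehicle.

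**Figure D2:**
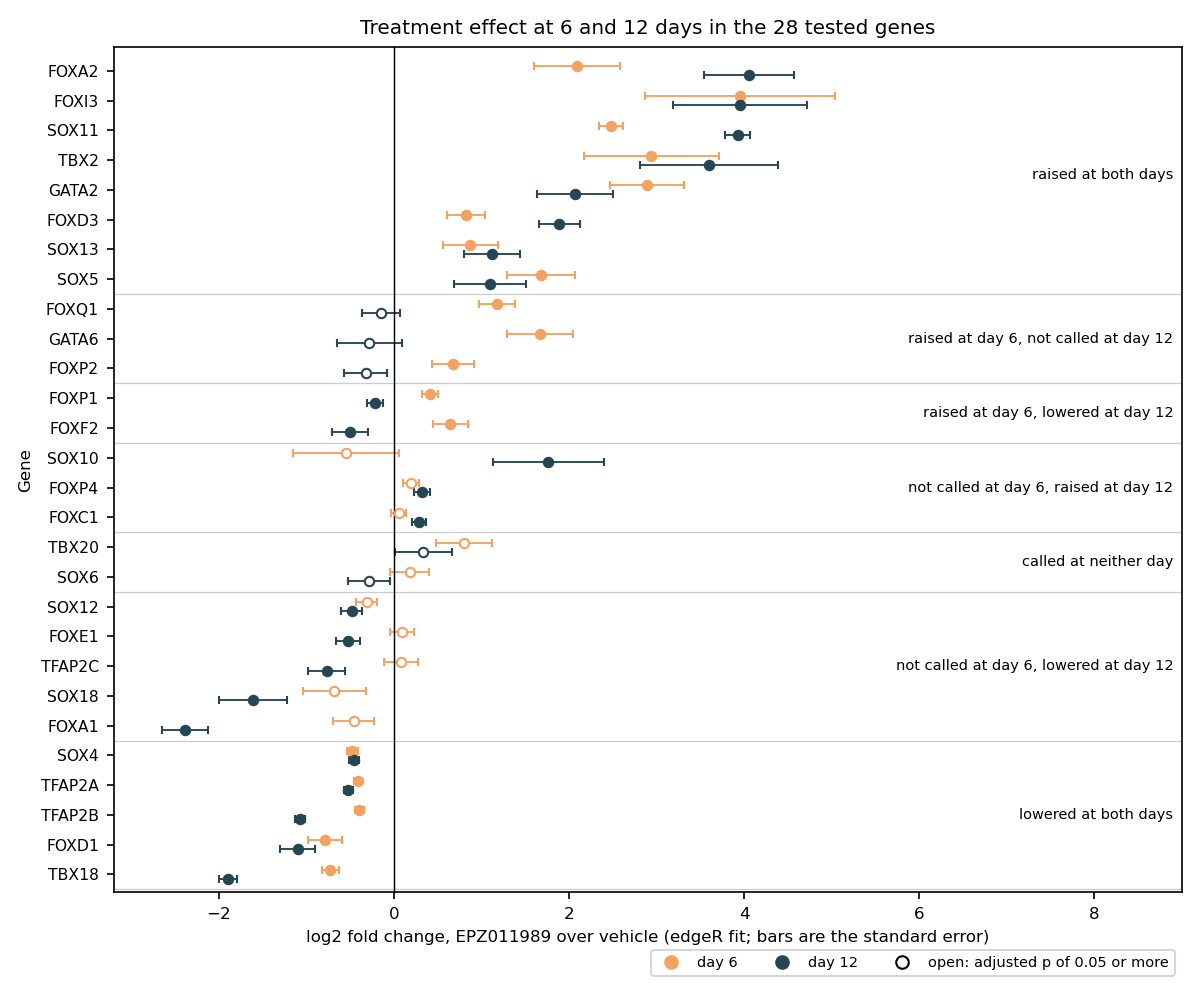
Log2 fold change of EPZ011989 over vehicle, with its standard error, at day 6 (orange) and day 12 (dark) for the 28 tested genes, in 7 groups by the course of their calls; filled points passed an adjusted p of 0.05. FOXA2, SOX11 and TBX2 lie far to the right at day 12, and FOXA1 and TBX18 far to the left.

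Both tested GATA genes rose at day 6 and then parted. GATA2, a factor of blood stem cells, had 8.08, 6.09 and 6.00 CPM in EPZ011989 cells at day 6, against 1.05, 0.271 and 1.37 CPM in vehicle. At day 12 it had 3.78, 3.82 and 3.37 CPM in EPZ011989 cells, against 1.35, 0.560 and 0.708 CPM in vehicle. All treated libraries lay above all vehicle libraries at each day. In bulk RNA, here and below, a change in the share of cells with a transcript and a change in its amount per cell cannot be told apart. The 6 leukocyte markers summed to 3.72 to 4.06 CPM in EPZ011989 cells at day 6, against 10.5 to 11.4 CPM in vehicle, and to 1.46 to 2.35 CPM in EPZ011989 cells at day 12, against 5.60 to 6.00 CPM in vehicle. CD68 and CD79B were the 2 that reached 1 CPM at day 6; PTPRC had no read in EPZ011989 cells at day 12. The part of these markers in the GATA2 values was not tested. The log2 fold change of GATA2 was 2.89 ± 0.42 at day 6 (edgeR quasi-likelihood adjusted p = 0.000107) and 2.07 ± 0.43 at day 12 (adjusted p = 0.000645).

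GATA6, a regulator of endoderm and heart, had 2.45, 1.99 and 2.48 CPM in EPZ011989 cells at day 6, against 0.552, 1.03 and 0.581 CPM in vehicle, a rise of 1.67 ± 0.38 on the log2 scale (edgeR adjusted p = 0.00347). At day 12 it had 1.23, 0.904 and 1.80 CPM in EPZ011989 cells, against 1.61, 1.29 and 1.87 CPM in vehicle, and the groups overlapped (-0.28 ± 0.37, adjusted p = 0.519). The vehicle libraries themselves were higher at day 12 than at day 6, all 3 above all 3, though that contrast did not pass for GATA6. The treatment effect differed between the days (-1.95 ± 0.53, adjusted p = 0.0072). The course of GATA6, a rise at day 6 without a call at day 12, was also that of FOXP2 and FOXQ1, and 2.83% of all tested genes followed it.

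TBX18 was the tested T-box gene of the list that fell, at both days. It had 15.2, 15 and 15.6 CPM in EPZ011989 cells at day 6, against 24.96, 26.1 and 24.8 CPM in vehicle, and 8.39, 9.29 and 8.03 CPM in EPZ011989 cells at day 12, against 36.9, 28.8 and 30.1 CPM in vehicle. The groups did not overlap at either day, and the day 12 gap was wider. TBX18 had log2 fold changes of -0.73 ± 0.10 and -1.90 ± 0.10 (edgeR adjusted p = 6.59e-05 and 7.04e-10), and the effect differed between days (-1.17 ± 0.14, adjusted p = 1.28e-05). The 6 fibroblast markers, of mesenchymal cells, summed to 21.8 to 29.8 CPM in EPZ011989 cells at day 6, against 14.9 to 20.0 CPM in vehicle, and to 17.8 to 19.4 CPM in EPZ011989 cells at day 12, against 9.66 to 14.5 CPM in vehicle. They were higher with EPZ011989 without overlap at both days, with 3 of them at 1 CPM in each group at day 6, 2 in EPZ011989 cells and 1 in vehicle at day 12, and LUM at no read in vehicle at day 12. Their part in the values of TBX18 and of FOXF2, described below, was not tested. In vehicle TBX18 was 0.34 ± 0.10 higher on the log2 scale at day 12 than at day 6 (adjusted p = 0.0387).

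TBX2, a T-box repressor, had 2.15, 1.28 and 1.27 CPM in EPZ011989 cells at day 6, against 0.386, 0.217 and 0 CPM in vehicle, and 1.84, 3.32 and 1.74 CPM in EPZ011989 cells at day 12, against 0.386, 0.168 and 0 CPM in vehicle. Treated libraries were above vehicle in every pairing, but the vehicle values rested on 11 reads in all at day 6 and 9 at day 12. The log2 fold change was 2.94 ± 0.77 at day 6 (edgeR adjusted p = 0.00891) and 3.59 ± 0.79 at day 12 (adjusted p = 0.00101). TBX20, a heart factor, was called at neither day: it had 1.86, 3.72 and 3.35 CPM in EPZ011989 cells at day 6, against 1.66, 1.52 and 1.90 CPM in vehicle (0.80 ± 0.32, adjusted p = 0.0674). TBX20 passed when treated replicate 1, the lowest of the 3, was left out (1.06, adjusted p = 0.0212).

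The FOXA genes, pioneer factors of endoderm, moved in opposite directions. FOXA2 had 3.48, 4.17 and 4.21 CPM in EPZ011989 cells at day 6, against 1.66, 0.217 and 0.898 CPM in vehicle, and 8.54, 12.9 and 13.3 CPM in EPZ011989 cells at day 12, against 0.193, 0.897 and 0.966 CPM in vehicle, without overlap at either day. FOXA1 had 3.87, 4.36 and 3.40 CPM in EPZ011989 cells at day 6, against 6.52, 4.23 and 5.23 CPM in vehicle, with overlap, and 1.69, 0.954 and 1.07 CPM in EPZ011989 cells at day 12, against 6.56, 6.05 and 6.89 CPM in vehicle, without overlap. FOXA2 rose by 2.09 ± 0.49 on the log2 scale at day 6 and 4.05 ± 0.51 at day 12 (edgeR adjusted p = 0.00441 and 6.48e-06). For FOXA1 the day 6 value was -0.46 ± 0.24 (adjusted p = 0.154) and the day 12 value -2.39 ± 0.26 (adjusted p = 1.24e-06).

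The difference between days was -1.93 ± 0.35 for FOXA1 (edgeR adjusted p = 0.000389) and 1.96 ± 0.71 for FOXA2 (adjusted p = 0.0352). The FOXA2 call was lost when any of 8 libraries was left out, namely replicate 1 or 3 of the day 6 vehicle group, any treated replicate at day 6, vehicle replicate 1 at day 12, or replicate 2 or 3 of the day 12 treated group (adjusted p = 0.0532 to 0.177). FOXA1 lies opposite TTC6, and whether quantification used strand is not stated, so reads from sequence shared by the pair cannot be told apart. Of the 28 tested genes, 17 overlap a gene on the opposite strand. Only for FOXA1, FOXP2, SOX6 and SOX10 was an opposite gene itself among the genes quantified.

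FOXD3, a factor of neural crest and pluripotent cells, had 5.97, 7.75 and 8.19 CPM in EPZ011989 cells at day 6, against 4.42, 4.94 and 3.01 CPM in vehicle, and 9.56, 10.2 and 9.55 CPM in EPZ011989 cells at day 12, against 3.28, 2.69 and 1.93 CPM in vehicle. FOXD1 had 31.4, 25.9 and 30.9 CPM in EPZ011989 cells at day 6, against 46.9, 54.2 and 51.6 CPM in vehicle, and 14.2, 19.3 and 17.3 CPM in EPZ011989 cells at day 12, against 23.7, 34.7 and 50.4 CPM in vehicle. These forkhead paralogues went opposite ways, and neither overlapped at either day. FOXD3 rose by 0.82 ± 0.22 and 1.89 ± 0.23 (edgeR adjusted p = 0.0102 and 4.25e-06), with a difference of 1.07 ± 0.32 between days (adjusted p = 0.0127). FOXD1 changed by -0.79 ± 0.19 and -1.10 ± 0.20 (adjusted p = 0.0059 and 0.00024), its lowest vehicle value at day 12 coming from replicate 1 of that group.

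The 3 neighbours on chromosome 6 lie within 301 kb, with gaps of 74.8 kb between FOXQ1 and FOXF2 and 214 kb between FOXF2 and FOXC1. FOXQ1 had 18.8, 14.9 and 15.6 CPM in EPZ011989 cells at day 6, against 6.40, 8.04 and 7.34 CPM in vehicle, and 6.55, 5.17 and 4.32 CPM in EPZ011989 cells at day 12, against 6.69, 3.98 and 7.21 CPM in vehicle. FOXF2, a factor of gut and palate mesenchyme, had 10.8, 9.81 and 14.1 CPM in EPZ011989 cells at day 6, against 7.01, 8.25 and 6.92 CPM in vehicle, and 4.45, 6.18 and 4.27 CPM in EPZ011989 cells at day 12, against 5.53, 7.40 and 8.24 CPM in vehicle. FOXC1 had 32.4, 30.0 and 30.9 CPM in EPZ011989 cells at day 6, against 28.6, 33.3 and 28.04 CPM in vehicle, and 41.5, 40.1 and 35.8 CPM in EPZ011989 cells at day 12, against 31.8, 32.0 and 32.7 CPM in vehicle. FOXQ1 and FOXF2 lay above vehicle at day 6 without overlap and overlapped it at day 12, whereas FOXC1 overlapped at day 6 and lay above at day 12.

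FOXQ1 rose by 1.18 ± 0.21 at day 6 (edgeR adjusted p = 0.000538) and had -0.15 ± 0.22 at day 12 (adjusted p = 0.567), a difference of -1.33 ± 0.30 (adjusted p = 0.00225). Without replicate 3 of the day 12 vehicle group its day 12 value was 0.02. FOXF2 rose by 0.65 ± 0.20 at day 6 and fell at day 12, by 0.51 ± 0.20 (adjusted p = 0.0202 and 0.0411), a difference of -1.15 ± 0.28 (adjusted p = 0.00395). Its day 6 call was lost without replicate 1 or 3 of the vehicle group or replicate 3 of the treated group (adjusted p = 0.0632 to 0.112). The day 12 call of FOXF2 was lost without replicate 2 or 3 of the vehicle group or replicate 1 or 3 of the treated group (0.0973 to 0.157) and with library totals in place of TMM (0.0763), while the difference held throughout. FOXC1 had 0.05 ± 0.08 at day 6 (adjusted p = 0.655) and rose by 0.28 ± 0.08 at day 12 (adjusted p = 0.00624), a call lost with transcript lengths as an offset (adjusted p = 0.115). The next gene, GMDS, was called at neither day (-0.07 and -0.09).

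**Figure D3:**
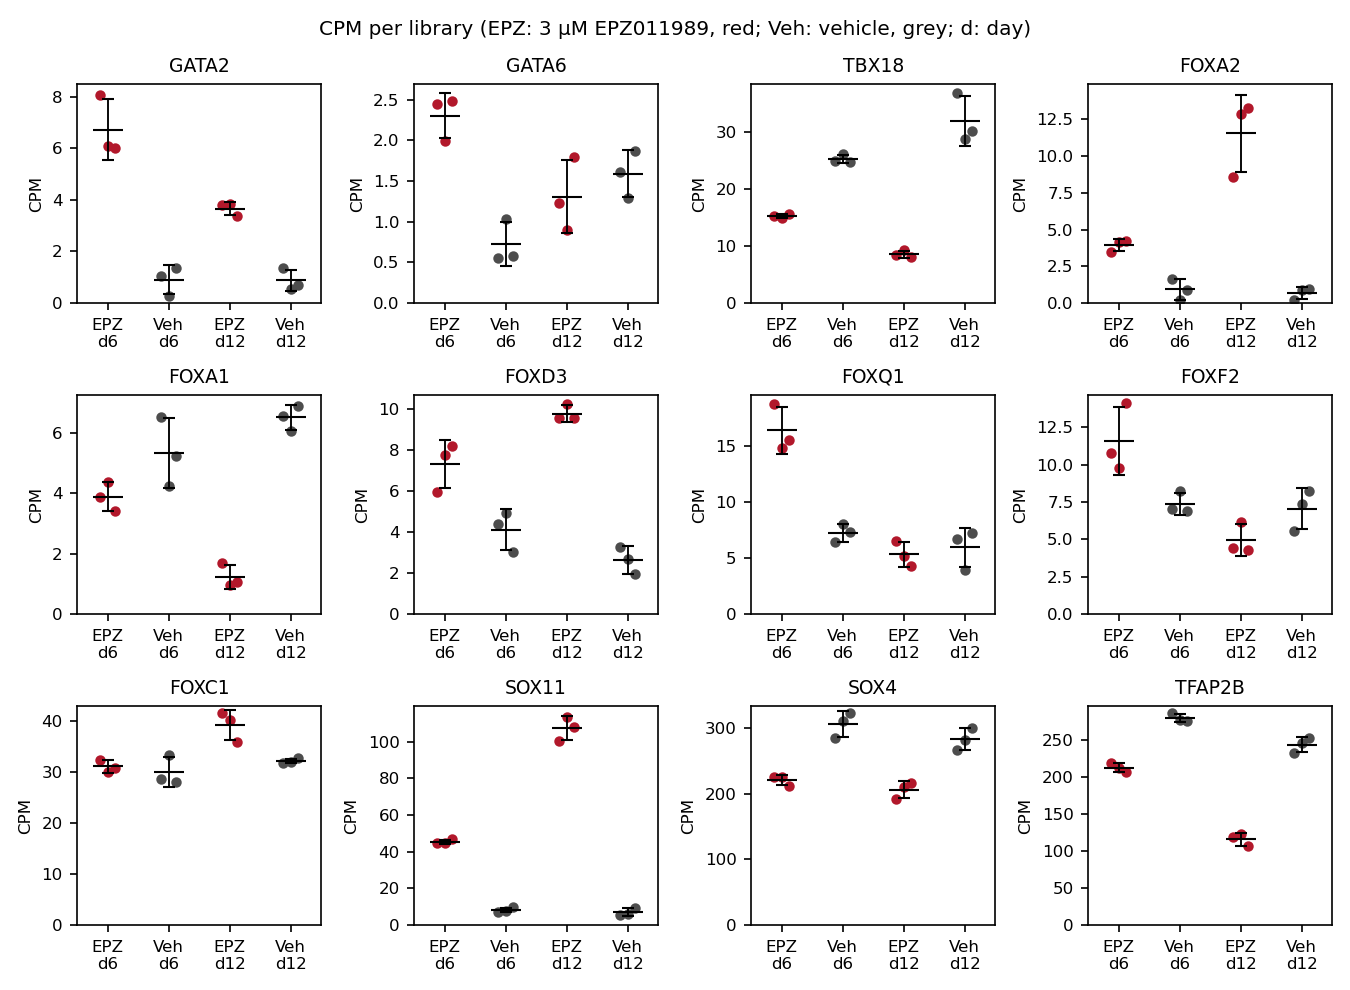
CPM in each library of 12 genes, with the mean and SD of 3 libraries; EPZ011989 groups (red) stand left of their vehicle groups (grey), at day 6 and then day 12, on axes that start at 0. SOX11 and FOXA2 climb further at day 12, FOXQ1 and GATA6 stand above vehicle at day 6 alone, and TBX18, FOXA1 and TFAP2B are lowest in EPZ011989 cells at day 12.

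The FOXP genes are regulators of forebrain and other tissues. FOXP1 had 31.6, 33.5 and 34.3 CPM in EPZ011989 cells at day 6, against 24.0, 25.03 and 25.4 CPM in vehicle, and 20.9, 22.7 and 25.7 CPM in EPZ011989 cells at day 12, against 29.6, 26.4 and 24.6 CPM in vehicle. It rose by 0.42 ± 0.09 at day 6 and fell by 0.22 ± 0.09 at day 12 (edgeR adjusted p = 0.00261 and 0.0474). The day 12 groups overlapped, and that call was lost under library totals (0.158), DESeq2's test (0.0706), the replicate number as a block (0.0575) and without any 1 of 9 libraries (adjusted p = 0.0517 to 0.232): replicate 1 or 2 of either vehicle group, any treated replicate at day 6, or treated replicate 1 or 2 at day 12. The difference between days, -0.64 ± 0.13 (adjusted p = 0.000973), held in each of these. FOXP1 has 76 annotated transcripts, and with transcript lengths as an offset neither the day 6 value (0.14, adjusted p = 0.61) nor the difference (-0.41, adjusted p = 0.224) passed. Courses of a rise at day 6 and a fall at day 12, as in FOXP1 and FOXF2, were called in 1.15% of all tested genes.

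FOXP2 had 6.36, 3.85 and 5.88 CPM in EPZ011989 cells at day 6, against 3.04, 2.99 and 4.07 CPM in vehicle, with overlap, and 3.43, 2.76 and 3.87 CPM in EPZ011989 cells at day 12, against 3.73, 4.65 and 4.19 CPM in vehicle, again with overlap (-0.32 ± 0.24, adjusted p = 0.255). Its day 6 value of 0.68 ± 0.24 passed narrowly (edgeR adjusted p = 0.0425) and did not without replicate 1 or 2 of the vehicle group or replicate 1 or 3 of the treated group (0.116 to 0.162). The difference between days of -0.999 ± 0.34 (adjusted p = 0.0264) was lost without replicate 1 or 2 of the day 6 vehicle group, replicate 1 or 3 of the day 6 treated group, or replicate 2 of either day 12 group (0.0549 to 0.0705). FOXP4 had 89.2, 83.3 and 95.9 CPM in EPZ011989 cells at day 6, against 77.1, 80.8 and 76.7 CPM in vehicle (0.19 ± 0.09, adjusted p = 0.125), and 81.3, 91.9 and 90.8 CPM in EPZ011989 cells at day 12, against 58.0, 77.1 and 75.9 CPM in vehicle (0.32 ± 0.09, adjusted p = 0.00721). Treated FOXP4 libraries were above all vehicle libraries at both days. The day 6 value of FOXP4 passed without replicate 1 of the day 12 vehicle group (adjusted p = 0.0233), and its day 12 call was lost with the length offset (0.0612).

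FOXI3, a factor of ectodermal placodes, had 0.685, 0.192 and 0.231 CPM in EPZ011989 cells at day 6, against 0, 0.0543 and 0 CPM in vehicle, and 1.94, 1.21 and 1.91 CPM in EPZ011989 cells at day 12, against 0.193, 0.112 and 0 CPM in vehicle. Treated libraries were the higher in every pairing, on 1 vehicle read at day 6 and 5 at day 12. The fitted log2 fold changes, 3.95 ± 1.08 and 3.96 ± 0.77 (edgeR adjusted p = 0.0114 and 0.000373), depend on so few reads, and the day 6 call was lost without treated replicate 1 (3.13, adjusted p = 0.0707). FOXE1, a thyroid factor, had 9.64, 11.7 and 11.1 CPM in EPZ011989 cells at day 6, against 11.7, 9.18 and 9.56 CPM in vehicle, and 7.87, 6.73 and 7.81 CPM in EPZ011989 cells at day 12, against 9.84, 10.7 and 11.7 CPM in vehicle. It had 0.09 ± 0.14 at day 6 (adjusted p = 0.656), fell by 0.52 ± 0.14 at day 12 without overlap (adjusted p = 0.0042), and the effects differed (-0.61 ± 0.20, adjusted p = 0.0186).

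The SOXC genes, SOX4, SOX11 and SOX12, which act in neural and other progenitors, did not move as one. SOX11 had 44.8, 44.9 and 46.7 CPM in EPZ011989 cells at day 6, against 7.12, 7.76 and 9.61 CPM in vehicle, and 100, 114 and 108 CPM in EPZ011989 cells at day 12, against 5.73, 6.11 and 9.40 CPM in vehicle. SOX4 had 225, 226 and 212 CPM in EPZ011989 cells at day 6, against 286, 312 and 324 CPM in vehicle, and 193, 211 and 217 CPM in EPZ011989 cells at day 12, against 267, 282 and 301 CPM in vehicle. SOX12 had 100, 94.9 and 95.5 CPM in EPZ011989 cells at day 6, against 109, 129 and 122.7 CPM in vehicle, and 66.2, 72.8 and 73.7 CPM in EPZ011989 cells at day 12, against 79.8, 94.0 and 123.3 CPM in vehicle. Each of the 3 genes separated from vehicle at both days, SOX11 upward and the other two downward.

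SOX11 rose by 2.48 ± 0.14 and 3.93 ± 0.14 (edgeR adjusted p = 7.54e-09 and 8.09e-12), 5.56-fold and 15.2-fold, and the effects differed by 1.45 ± 0.20 (adjusted p = 3.58e-05). Per length, SOX11 averaged 21.9 TPM in EPZ011989 cells at day 12, against 1.43 TPM over the 6 vehicle libraries. SOX4 fell by 0.47 ± 0.06 at day 6 and by 0.46 ± 0.06 at day 12 (adjusted p = 2.74e-05 and 9.18e-06). SOX12 had -0.31 ± 0.12 at day 6 (adjusted p = 0.0509) and fell by 0.48 ± 0.12 at day 12 (adjusted p = 0.00229). The day 6 value of SOX12 passed under DESeq2's test (0.0218) and without replicate 1 of the day 6 vehicle group or replicate 1 or 3 of the day 12 vehicle group (0.00652 to 0.0392).

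The SOXD genes, SOX5, SOX6 and SOX13, lack an activation domain of their own. SOX5 had 2.01, 2.56 and 2.08 CPM in EPZ011989 cells at day 6, against 0.552, 0.706 and 0.792 CPM in vehicle, and 0.767, 1.41 and 1.24 CPM in EPZ011989 cells at day 12, against 0.450, 0.729 and 0.386 CPM in vehicle. SOX13 had 4.11, 4.42 and 3.35 CPM in EPZ011989 cells at day 6, against 1.49, 2.61 and 2.38 CPM in vehicle, and 4.19, 5.93 and 5.11 CPM in EPZ011989 cells at day 12, against 1.67, 1.74 and 3.61 CPM in vehicle. Both were above vehicle in every pairing at each day. SOX5 rose by 1.68 ± 0.39 and 1.10 ± 0.41 (edgeR adjusted p = 0.0039 and 0.0284), and its day 12 call was lost without replicate 1 or 3 of the vehicle group or replicate 2 or 3 of the treated group (0.0683 to 0.0958). SOX13 rose by 0.87 ± 0.32 and 1.12 ± 0.32 (adjusted p = 0.0467 and 0.00597). Its day 6 call was lost without any 1 of the 6 libraries of that day or without treated replicate 2 or 3 at day 12 (0.0526 to 0.16). SOX6 was called at neither day, at 0.18 ± 0.23 and -0.29 ± 0.24 (adjusted p = 0.589 and 0.3); its summed reads gave 0.612 times the authors' level, and in the authors' deposited table its log2 fold changes were -0.06 and 0.06.

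SOX10 and SOX18 mark neural crest and endothelial cells in development. SOX18 had 1.52, 1.60 and 2.02 CPM in EPZ011989 cells at day 6, against 2.21, 2.61 and 3.43 CPM in vehicle (-0.68 ± 0.36, edgeR adjusted p = 0.166), and 0.767, 0.402 and 1.12 CPM in EPZ011989 cells at day 12, against 1.67, 2.35 and 2.96 CPM in vehicle, where it fell by 1.61 ± 0.39 (adjusted p = 0.00204). Treated SOX18 libraries were below vehicle in every pairing at both days. The 5 endothelial markers together stood at 2.35 to 3.32 CPM in EPZ011989 cells at day 12, against 2.00 to 3.35 CPM in vehicle; 0 and 1 of them reached 1 CPM, and KDR had no read in either group.

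SOX10 had 0.441, 0.385 and 0.231 CPM in EPZ011989 cells at day 6, against 0.166, 0.597 and 0.792 CPM in vehicle, and 0.665, 1.05 and 0.618 CPM in EPZ011989 cells at day 12, against 0.129, 0.224 and 0.322 CPM in vehicle. The groups overlapped at day 6 and not at day 12. SOX10 had -0.55 ± 0.61 at day 6 (edgeR adjusted p = 0.532) and rose by 1.76 ± 0.63 at day 12 (adjusted p = 0.0237), on 11 vehicle reads; in the authors' deposited table, to which its summed reads stood at 0.772 times, the day 12 value was 2.05. The day 12 call was lost without vehicle replicate 1 or 2 or treated replicate 2 (0.0636 to 0.0926). SOX10 lies opposite another gene, POLR2F, whose part in the SOX10 reads was not tested. The difference of 2.31 ± 0.88 (adjusted p = 0.0433) was lost without any 1 of 10 libraries, all but replicate 1 of the day 6 and replicate 3 of the day 12 vehicle groups (0.0565 to 0.14). The 5 melanocyte markers summed to 2.15 to 3.03 CPM in EPZ011989 cells at day 12, against 5.32 to 6.76 CPM in vehicle, with 1 and 3 of them at 1 CPM or more and TYR at no read in vehicle; their part in the SOX10 values was not tested.

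All 3 TFAP2 genes were lower at day 12. TFAP2A had 142, 131 and 136 CPM in EPZ011989 cells at day 6, against 188, 179 and 178 CPM in vehicle, and 131, 131 and 134 CPM in EPZ011989 cells at day 12, against 202, 182 and 184 CPM in vehicle. TFAP2B had 218, 212 and 206 CPM in EPZ011989 cells at day 6, against 286, 277 and 275 CPM in vehicle, and 118, 122.9 and 106 CPM in EPZ011989 cells at day 12, against 232, 246 and 253 CPM in vehicle. TFAP2C had 6.36, 7.05 and 7.73 CPM in EPZ011989 cells at day 6, against 7.01, 6.24 and 6.65 CPM in vehicle, and 3.53, 2.46 and 2.08 CPM in EPZ011989 cells at day 12, against 4.95, 4.65 and 4.19 CPM in vehicle. TFAP2A and TFAP2B lay below vehicle at both days, TFAP2C at day 12 alone. The 5 keratinocyte markers summed to 5.57 to 7.74 CPM in EPZ011989 cells at day 12, against 5.41 to 6.89 CPM in vehicle, with KRT10 alone at 1 CPM. KRT1 had no read in any group. KRT14 and TP63 had no read in EPZ011989 cells at day 12 and were under 1 CPM in vehicle.

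TFAP2A fell by 0.41 ± 0.05 and 0.52 ± 0.05 (edgeR adjusted p = 1.63e-05 and 2.68e-07). TFAP2B fell by 0.40 ± 0.05 and 1.07 ± 0.05 (adjusted p = 4.19e-05 and 2.31e-10), and its effects differed by -0.68 ± 0.07 (adjusted p = 4.5e-06). TFAP2C had 0.09 ± 0.19 at day 6 (adjusted p = 0.775) and fell by 0.77 ± 0.21 at day 12 (adjusted p = 0.00452), with a difference of -0.86 ± 0.28 (adjusted p = 0.0231) that was lost without treated replicate 3 of either day (0.0548 and 0.055). In vehicle TFAP2B was 0.20 ± 0.05 lower at day 12 than at day 6 on the log2 scale (adjusted p = 0.0278). TFAP2B and TBX18 were the 2 of the 28 called between the vehicle days, where 13.2% of all tested genes were called (6.00% higher and 7.15% lower). Neither call held without replicate 1 of the day 12 vehicle libraries (adjusted p = 0.0908 for TFAP2B and 0.164 for TBX18) or without any 1 vehicle library of day 6 (0.0638 to 0.119). TFAP2B was also lost without replicate 2 of the day 12 vehicle libraries (0.0707), and TBX18 without any 1 treated library of day 6 (0.0538 to 0.0542).

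The 9 genes at 10 TPM or more in vehicle mostly fell. At day 12, 7 were lower (TFAP2A, TFAP2B, SOX4, SOX12, FOXD1, TBX18 and FOXP1) and 2 higher (FOXC1 and FOXP4), while of all tested genes at that level 45.9% were lower and 26.9% higher. At day 6, 5 were lower and 1 higher, against 25.1% and 11.9% of all tested genes at that level. Of the 12 genes between 1 and 10 TPM 6 were higher and none lower at day 6, against 23.7% and 4.98% of all such genes, and 3 were higher and 5 lower at day 12, against 40.5% and 16.2%. Among the 30 genes under 1 TPM in vehicle 7 were tested, of which TBX2, FOXI3 and SOX10 passed the filter only with treated libraries. Of the other 4 (GATA2, GATA6, FOXA2 and SOX5) all rose at day 6, and 3 rose and none fell at day 12. Of all tested genes under 1 TPM, which the same filter selects, 30.6% rose and 0.68% fell at day 6. At day 12, 54.1% of them rose and 3.40% fell. Those shares were not limited to genes that pass the filter in vehicle libraries, as the 4 were, so the sets are unlike. Vehicle libraries enter both the level and the fold change, so the 2 quantities are not independent.

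**Figure D4:**
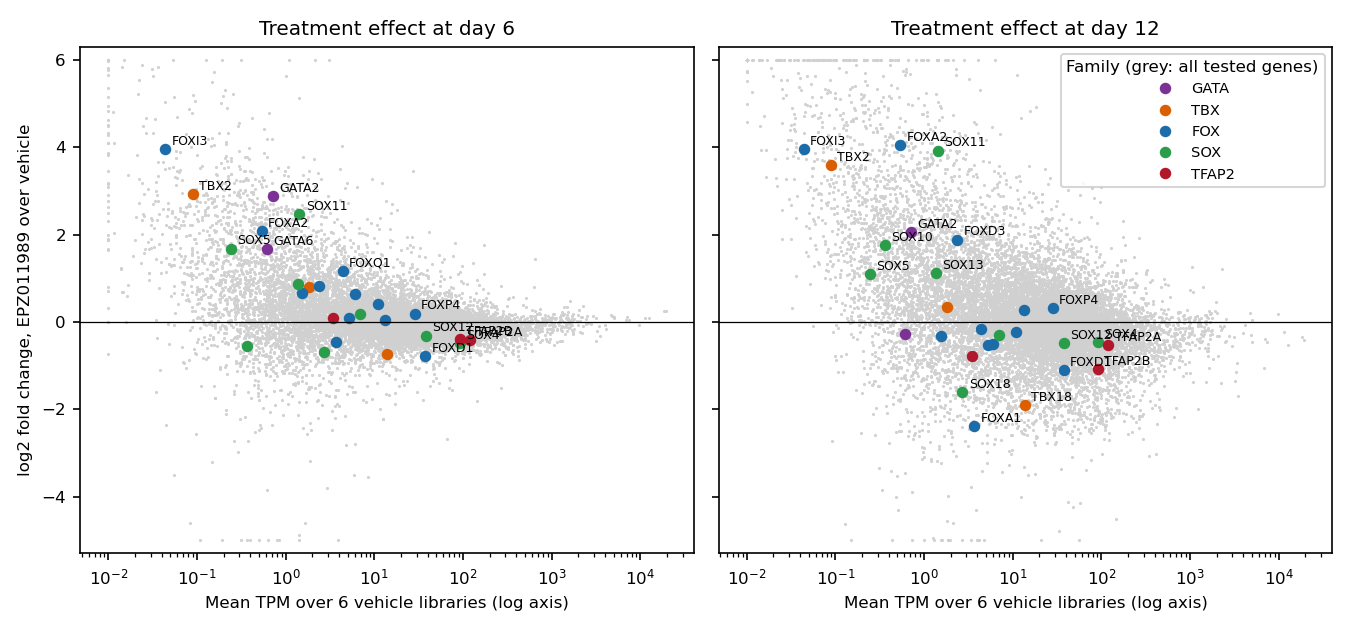
Log2 fold change of EPZ011989 over vehicle at day 6 (left) and day 12 (right) against mean TPM in the 6 vehicle libraries on a log axis; colours are families, grey points are all 15016 tested genes, drawn at the edge where beyond -5 or 6. Genes under 1 TPM in vehicle lie mostly above 0 and TFAP2A, TFAP2B and SOX4 below it.

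Courses over the 2 days also split the families. Rises at both days were called in 8 genes (GATA2, TBX2, FOXA2, FOXD3, FOXI3, SOX5, SOX11 and SOX13) and in 13.2% of all tested genes. The vehicle median of the 8 was 0.625 TPM. TBX2 and FOXI3, which passed the filter only with treated libraries, enter this count and this median. Falls at both days were called in 5 (TBX18, FOXD1, SOX4, TFAP2A and TFAP2B) and in 12.4%, with a vehicle median of 91.4 TPM. Vehicle medians of all tested genes on these courses were not taken, so these medians describe the list alone. A fall at day 12 without a call at day 6 was found in 5 (FOXA1, FOXE1, SOX12, SOX18 and TFAP2C) and in 19.7%, and a rise of that timing in 3 (FOXC1, FOXP4 and SOX10) and in 19.1%. The difference between days was called in 3 of these 5 and 1 of these 3, against 71.3% and 64.8% of all tested genes on these courses. It did not pass for SOX12, SOX18, FOXC1 and FOXP4 (edgeR adjusted p = 0.427, 0.166, 0.114 and 0.453). For them a later effect is not shown. SOX10 also passed the filter only with treated libraries. TBX20 and SOX6 were called at neither day, as were 27.0% of all tested genes. The rise at day 6 without a call at day 12 comprised GATA and FOX genes, and no SOX, TBX or TFAP2 gene followed it. Whether the families differ in timing beyond these counts was not tested.

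The other 23 genes did not pass the filter on low counts, with at most 19 in a library and 67 in all (TBX15), with a highest group mean of 0.772 CPM. GATA5, TBX5 and SOX17 had no summed read in any of the 12 libraries and are listed at 0 in the authors' deposited table. GATA4 also had no summed read, but the authors' table holds a low signal for it, with a mean of 0.263 in EPZ011989 cells at day 6, against 0.673 in vehicle. FOXL2, an ovarian factor, had 40 reads in EPZ011989 cells at day 6, against 0 in vehicle, at least 4.76-fold higher against a floor of 3 reads per library, and 16 reads in EPZ011989 cells at day 12, against 5 in vehicle, a ratio of 2.73 (exact binomial 95% interval 0.957 to 9.54, counting error only). The day 6 rise of FOXL2 passed without the filter (edgeR adjusted p = 0.000992) and in limma on the authors' deposited table (adjusted p = 0.00336), and all treated libraries lay above vehicle. That limma fit kept only genes at 10 or more in at least 1 library, which 5 of these 23 genes reached. FOXL2 did so only with treated libraries (mean 13.5 in EPZ011989 cells at day 6, against 0 in vehicle). Its limma call was therefore partly required by that limit. TBX15 had 34 reads in EPZ011989 cells at day 12, against 8 in vehicle (ratio 3.63, 1.65 to 9.08), and TBX1 22 reads, against 6 in vehicle (3.13, 1.23 to 9.44). All 6 vehicle reads of TBX1 were in replicate 3; limma on the authors' table passed at day 12 with a pseudocount of 1 (adjusted p = 0.0432) and not with 5 (0.0557), nor did edgeR without the filter (0.334). SOX21, a neural factor, had 15 reads in EPZ011989 cells at day 6, against 3 in vehicle (5.2, 1.47 to 28). TBX3 ran the other way, with 3 reads in EPZ011989 cells at day 6, against 13 in vehicle (0.24, 0.0438 to 0.873). For GATA1 and SOX7 the sums fell short of the authors' level (0.669 and 0.299 times), and a group without summed reads held signal in the authors' deposited table. GATA1 had 11, 0 and 4 summed reads in EPZ011989 cells at day 12, against 0 in each vehicle library (edgeR without the filter, adjusted p = 0.0393), while the authors' table averaged 4.66 in EPZ011989 cells, against 2.73 in vehicle (limma adjusted p = 0.541). SOX7 had 9, 0 and 4 summed reads in EPZ011989 cells at day 6, against 0 in each vehicle library, while the authors' table averaged 4.75 in EPZ011989 cells, against 4.76 in vehicle. FOXA3 had 16 reads in EPZ011989 cells at day 6, against 6 in vehicle (2.77, 1.03 to 8.65), and FOXC2 2 reads, against 10 in vehicle (0.208, 0.0221 to 0.975). The remaining 10 (GATA3, TBX4, TBX21, FOXF1, FOXI1, SOX1, SOX3, SOX8, SOX9 and SOX14) had 11 or fewer reads over all libraries. Without the filter, 19 of the 23 entered the edgeR fit, and 1 was called at each day, FOXL2 at day 6 and GATA1 at day 12. That fit called 4882 of 23092 genes of any level at day 6 and 10148 at day 12.

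Of 38 further genes of the same families 26 were tested; 6 rose and 5 fell at day 6 (42.3% called, where 34.3% of all tested genes were), and 11 rose and 10 fell at day 12 (80.8%, where 66.9% were). FOXJ1, which drives motile cilia, rose by 1.75 ± 0.18 at day 6 and 4.76 ± 0.19 at day 12 (edgeR adjusted p = 5.16e-06 and 1.75e-11), at 37.6 ± 4.03 CPM in EPZ011989 cells at day 12, against 1.37 ± 0.388 CPM in vehicle (SD, n = 3 each). FOXM1, a cell cycle factor, fell by 0.59 ± 0.06 and 2.40 ± 0.06 (adjusted p = 2.47e-06 and 3.11e-13). FOXN3, a transcriptional repressor, rose by 1.33 and 1.09, FOXN2 had -0.27 (adjusted p = 0.0484, lost without any 1 of 10 libraries, 0.0552 to 0.135) and fell by 1.53, and SOX2 fell by 0.48 at day 6. At day 12 SOX2 had -0.19 ± 0.07 (adjusted p = 0.0279), a call lost with library totals (0.169) and without vehicle replicate 3 or treated replicate 1 or 3 of that day (0.086 to 0.17).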

How the data were processed

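RNA of MKL-1 cells was sequenced as 12 polyA-selected libraries. The deposited per-library files hold estimated counts, TPM and effective lengths per transcript, from Salmon 1.2.0; FastQC, DESeq2 and hg38 are further names in the submitters' processing notes. A normalized gene signal of the whole series was deposited by the authors; how it was normalized is not given in the sources used.

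Titles of the samples gave groups and replicate numbers. Transcripts were matched to GENCODE release 29 genes (168219 of 179883, 93.5%); 3.08 to 3.58% of a library's reads matched none and were left out. Estimated counts were summed per gene and rounded. Of 15016 tested genes 13504 lay within 0.8 to 1.25 times the level in the authors' table, after scaling by the median gene, 763 below and 51 above, and 698 had no entry there.

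Genes were kept by edgeR's filterByExpr and scaled by TMM. Tests were edgeR 4.0.16 quasi-likelihood (R 4.3.3), two-sided, fitted once over all 4 groups and 12 libraries, with Benjamini-Hochberg adjustment over all tested genes and a threshold of 0.05. Contrasts were EPZ011989 over vehicle at each day, day 12 minus day 6 of that effect, and vehicle at day 12 over vehicle at day 6. A standard error is the log2 fold change over the square root of F. Genes with no read in a group are given as a bound against 3 reads per library; other low genes as a ratio of summed reads with an exact 95% interval. Both cover counting error alone. Simulated counts with known changes were used to test the scripts.

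Alternatives were DESeq2 1.42.0 size factors and its test, library totals, other filters, transcript lengths as an offset, limma 3.58.1 on log2 of the authors' table (pseudocounts 1 and 5, which understates changes of low genes), a replicate block, a threshold of 0.01, and leaving out each library. The limma fit kept only genes at 10 or more in at least 1 library of the authors' table. Per-library values are given for list genes called in any contrast or at 10 TPM in vehicle, and of the other family genes the 4 with the smallest p per treatment contrast. The list and these rules were chosen with earlier results of these data known. CpG counts and letter searches used RefSeq promoter sequences (GRCh38.p14).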

Additional observations from a re-analysis of the deposited data

Results flagged for a closer look

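The treatment effect differed between day 12 and day 6, by the edgeR test of the difference itself, in 14 genes of the list; values are the day 12 minus the day 6 log2 effect. It was lower at day 12 in GATA6 (-1.95), TBX18 (-1.17), FOXA1 (-1.93), FOXE1 (-0.61), FOXF2 (-1.15), FOXP1 (-0.64), FOXP2 (-0.999), FOXQ1 (-1.33), TFAP2B (-0.68) and TFAP2C (-0.86). It was higher at day 12 in FOXA2 (1.96), FOXD3 (1.07), SOX10 (2.31) and SOX11 (1.45). Over all tested genes 47.7% had such a difference. For 7 of the 14 the call held in every alternative run, a count that was not taken over all tested genes.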

How the results depend on the processing

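The numbers of list genes called at day 6, at day 12 and for the difference were 18, 23 and 14; leaving out 1 library gave 15 to 21, 20 to 23 and 10 to 15. Counts over all genes ranged from 3890 to 5773, 9464 to 10086 and 6555 to 7594 in those fits. Differences above 0 numbered 4, and 2 to 4 in those fits. Between the vehicle days 2 of the list and 1975 genes in all were called; refits that left out 1 library called 0 to 5 and 183 to 4184, the highest without replicate 3 of the day 12 vehicle group. With transcript lengths as an offset 3241 genes were called at day 6 and 89 between vehicle days, with 0 of the list in vehicle and 2 differences above 0. At an adjusted p under 0.01 there were 3411 genes and 8 rises of the list at day 6, 8 differences with 1 above 0, and 181 genes with 0 of the list in vehicle. On the authors' table (pseudocounts 1 and 5) 9 and 9 differences were called, 1 and 1 above 0, with 0 and 0 of the list and 140 and 129 genes in vehicle. DESeq2's test called 4 of the list in vehicle. At 10 TPM in place of 1 TPM 9 genes were detected in vehicle. The causes were not tested.

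Directions that turned were all of values not called: SOX6 at day 6 (-0.0557 and -0.0555 on the authors' table), SOX6 at day 12 (0.0556 and 0.0552 there, 0.42 with the length offset), FOXP2 at day 12 (0.14 and 0.13 there, 0.17 with the offset) and FOXQ1 at day 12 (-0.379 to 0.0201 over the libraries left out, above 0 without vehicle replicate 3). Calls held in every alternative for 11 of 18 genes at day 6, 16 of 23 at day 12 and 7 of 14 differences. These counts include TBX2 at both days and FOXI3 at day 12, which passed the filter only with treated libraries. The same counts over all tested genes were not taken, so they describe the list alone. Same-numbered libraries of a day did not deviate together (correlations -0.046 to 0.052), and the main fit did not pair them. Such correlations cannot tell how the samples were set up, so pairing is not excluded. With the replicate number as a block, SOX12 passed at day 6 (edgeR adjusted p = 0.033). The calls of FOXP1 at day 12 (-0.22, 0.0575) and of the SOX10 difference (2.22, 0.0675) were lost, giving 19, 22 and 13 of the list. With few reads, as in FOXI3, TBX2 and SOX10, depth limits the fold changes. Of the 23 genes under the filter 19 entered the edgeR fit without it, and 5 entered the limma fit on the authors' table. FOXL2 at day 6 was the only gene called in both. It reached the limma limit of 10 only with treated libraries, so that call was partly required by the limit.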
